A study of Homo sapiens and Mus musculus with 7 samples.

Results

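The DNA replication genes described here are a list of 46 genes chosen by name, of which 45 were among the 14946 gene symbols of an RNA-seq table from HEL cells, a human erythroleukaemia line. PRIM2, the large primase subunit, had no row. The list was sorted by role into 14 genes of origin licensing, 6 of helicase activation, 9 of the replicative polymerases and primase, 6 of the sliding clamp and its loader, 3 of single-strand binding, 2 of Okazaki fragment maturation, 4 of nucleotide supply and 2 of histone deposition. The study asked how KAP1 (gene symbol TRIM28), the corepressor recruited by KRAB zinc finger proteins, acts in erythroid cells. There were 4 groups of HEL cells with 1 library each: KAP1 knockdown (labelled KAP1 KD) without activation, KAP1 knockdown activated with hemin, and the same pair of states in cells labelled KAP1 WT. Hemin, an iron porphyrin that induces erythroid genes in such lines, was given at 50 µM for 5 days. The control columns of the table are headed Ctrl, and they were matched to KAP1 WT as the other HEL genotype in the labels. Every knockdown ratio rests on that match. The labels do not give the knockdown method, the vector in the control cells or the number of clones, and all 4 groups come from a single cell line.

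Replication starts with licensing. The origin recognition complex (ORC1 to ORC6), with CDC6 and CDT1, loads the MCM2 to MCM7 ring onto DNA as an inactive helicase before S phase. In S phase CDC45, the GINS complex and MCM10 turn the ring into a running helicase, polymerase alpha with primase makes primers, polymerases epsilon and delta extend them with PCNA as their clamp, and ribonucleotide reductase, thymidylate synthase and thymidine kinase supply the deoxynucleotides. Many of these genes are classical targets of E2F factors, which drive their transcription as cells enter S phase.

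Levels are given as scaled TPM, so that they can be compared between genes and between libraries. Scaled TPM are the deposited RPKM divided by a constant factor of their column and by each library's reads total and TMM factor. Ratios are log2 ratios of scaled TPM + 0.5, which understates the change of low genes, and a log2 ratio of 1 is a 2-fold difference. The range in brackets is an exact 95% counting interval on the recovered reads, which covers counting error only. With 1 library per group there is no replicate check of any ratio, and no p-value belongs to a single pair of libraries. A gene counted in a comparison if it reached a floor of 5 scaled TPM in the higher of its libraries. The libraries held 24033000 to 42119308 reads on the transcripts used. TRIM28, the targeted gene, was at 421 and 400 scaled TPM in control cells without and with hemin, and at 317 and 190 in knockdown cells, which is 1.33-fold lower without hemin and 2.10-fold lower with hemin. Its row held whole numbers, unlike those of the replication genes, and has no counting interval. How these TRIM28 values were made is unknown, so the scaling used for the other rows may not apply to them. The sizes of the TRIM28 differences, and which of them is larger, rest on that scaling. The hemin libraries stood apart in the summed level of 7 small structural RNAs, which carry no long poly-A tail. It was 493 and 1155 scaled TPM in control cells without and with hemin, and 334 and 1824 in knockdown cells. Most of it was RN7SL1, at 437 and 1088 in control cells and 285 and 1597 in knockdown cells. In control cells SNORA73B was lower with hemin, at 21.8 and 9.72, and RMRP was nearly level, at 7.69 and 7.92. In knockdown cells the 5 that reached the floor were all at least 2-fold higher with hemin. The part of these RNAs in the ratios that use a hemin library was not tested. The knockdown ratios without hemin use neither hemin library.

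Promoter sequences are shown for 6 genes because they carry letters of the E2F consensus near their start, come from the licensing and polymerase groups, and include both the highest knockdown ratio (POLE2) and a gene that left the common direction (ORC3). The windows come from RefSeq on GRCh38.p14 and run from 250 bases before to 50 bases after each start, and 280 bases of each are printed, up to 30 bases after the start. The coordinates belong to that build and not to hg19, the build named in the submitters' processing notes. All are given 5′ to 3′ along the gene's strand, and capitals mark matches to TTTCCCGC, TTTCGCGC, TTTGCCGC or TTTGGCGC on either strand, with overlapping matches run together.
CDC6, chr17:40287629-40287908, plus strand: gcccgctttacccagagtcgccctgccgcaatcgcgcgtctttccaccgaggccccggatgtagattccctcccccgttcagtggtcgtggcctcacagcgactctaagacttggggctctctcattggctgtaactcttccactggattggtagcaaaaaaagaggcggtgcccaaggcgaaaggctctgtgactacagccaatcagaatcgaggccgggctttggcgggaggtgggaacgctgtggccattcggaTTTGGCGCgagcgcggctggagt
MCM2, chr3:127598161-127598440, plus strand: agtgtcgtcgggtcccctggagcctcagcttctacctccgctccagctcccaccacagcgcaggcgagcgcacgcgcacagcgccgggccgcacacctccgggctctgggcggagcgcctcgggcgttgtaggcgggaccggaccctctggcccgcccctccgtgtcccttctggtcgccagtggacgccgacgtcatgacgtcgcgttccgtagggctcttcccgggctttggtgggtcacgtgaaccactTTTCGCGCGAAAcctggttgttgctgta
MCM3, chr6:52284713-52284992, minus strand: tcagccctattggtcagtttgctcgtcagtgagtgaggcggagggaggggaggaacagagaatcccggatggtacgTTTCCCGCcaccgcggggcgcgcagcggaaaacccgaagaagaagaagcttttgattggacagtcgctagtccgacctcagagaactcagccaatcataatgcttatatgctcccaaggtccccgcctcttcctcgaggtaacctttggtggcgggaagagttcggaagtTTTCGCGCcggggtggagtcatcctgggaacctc
MCM6, chr2:135876414-135876693, minus strand: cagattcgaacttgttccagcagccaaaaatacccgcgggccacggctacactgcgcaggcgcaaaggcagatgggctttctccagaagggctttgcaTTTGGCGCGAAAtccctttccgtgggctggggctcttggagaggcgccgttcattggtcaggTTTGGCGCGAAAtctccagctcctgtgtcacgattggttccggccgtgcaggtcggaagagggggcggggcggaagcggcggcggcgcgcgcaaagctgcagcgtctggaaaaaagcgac
ORC3, chr6:87589885-87590164, plus strand: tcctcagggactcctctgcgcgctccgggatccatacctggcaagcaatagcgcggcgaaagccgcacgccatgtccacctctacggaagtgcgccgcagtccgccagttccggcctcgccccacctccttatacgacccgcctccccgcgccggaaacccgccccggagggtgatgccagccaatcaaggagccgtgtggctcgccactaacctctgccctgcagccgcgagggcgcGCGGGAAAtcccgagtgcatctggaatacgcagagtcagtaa
POLE2, chr14:49688185-49688464, minus strand: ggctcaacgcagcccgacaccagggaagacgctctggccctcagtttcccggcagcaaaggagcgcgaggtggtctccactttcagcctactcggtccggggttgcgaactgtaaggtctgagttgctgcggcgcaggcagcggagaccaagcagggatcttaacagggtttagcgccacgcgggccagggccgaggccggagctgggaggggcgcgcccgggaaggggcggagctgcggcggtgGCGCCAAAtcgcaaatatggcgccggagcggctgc

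Of the 46 genes, 40 matched a RefSeq window by symbol, with 50 windows among them. The 4 octamers occurred in 18 of the 50 windows (36.0%) and in 3.31% of all 35116 windows. Counted by gene, 18 of 40 replication genes (45.0%) had a match, against 6.23% of the 10281 genes of the expression table with a window. The letters CCAAT, the box bound by NF-Y, stood on either strand in 58.0% of the genes' windows and in 34.6% of all windows. MCM6 held 4 of the 24 octamer matches, in overlapping pairs whose first bases lie at -152 and -90, with the start as 0. In MCM2 a single overlapping pair lies at 2, just past the start. ORC3 carried a match at -12, and it was the only gene of the 6 whose knockdown ratios were below 0. The 18 genes with a match had median knockdown log2 ratios of 0.86 without hemin and 1.06 with hemin. For the 21 genes with a window, an expression row and no match, ORC4 below the floor included and PRIM2 left out, these were 0.75 and 0.92. A match is a string of letters and does not show that a factor binds there.

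Knockdown libraries held more RNA of nearly every replication gene. Of the 44 genes that reached the floor, 41 were higher in both knockdown libraries than in both control libraries, and the exceptions were MCM7, ORC2 and ORC3. No replication gene had both knockdown libraries below both control libraries. Over the 11183 genes of the table that reached the floor, 27.6% lay wholly above and 24.6% wholly below in that way. Without hemin the median log2 ratio of knockdown over control was 0.87 (1.83-fold), against 0.027 over all genes, and with hemin it was 1.03 (2.04-fold), against 0.0066. At least a 2-fold higher level was seen for 16 of 44 genes without hemin, where 6.72% of all genes were as much higher and 6.4% as much lower. With hemin 25 of 44 genes were at least 2-fold higher, where the shares over all genes were 6% and 4.11%. None of the 44 was 2-fold lower in either state. Over all 45 genes, with ORC4 below the floor included, 16 and 25 were again 2-fold higher and the medians were 0.87 and 1.03. The split of all genes depends on the scaling: 733 higher and 698 lower without hemin, and 655 and 449 with hemin, became 959 and 521, and 823 and 362, when libraries were scaled to equal sums of reads per length, and 146 and 2450, and 1108 and 297, in the deposited values as they stand, which carry depth. The log2 ratio was above 0 for 42 of 44 genes in each state, while 51.8% of all genes were above 0 without hemin and 50.5% with hemin. These are bulk samples, so more cells in S phase and more RNA per cell cannot be told apart. The members were chosen with earlier results of these data known, so the counts describe the list.

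**Figure D1:**
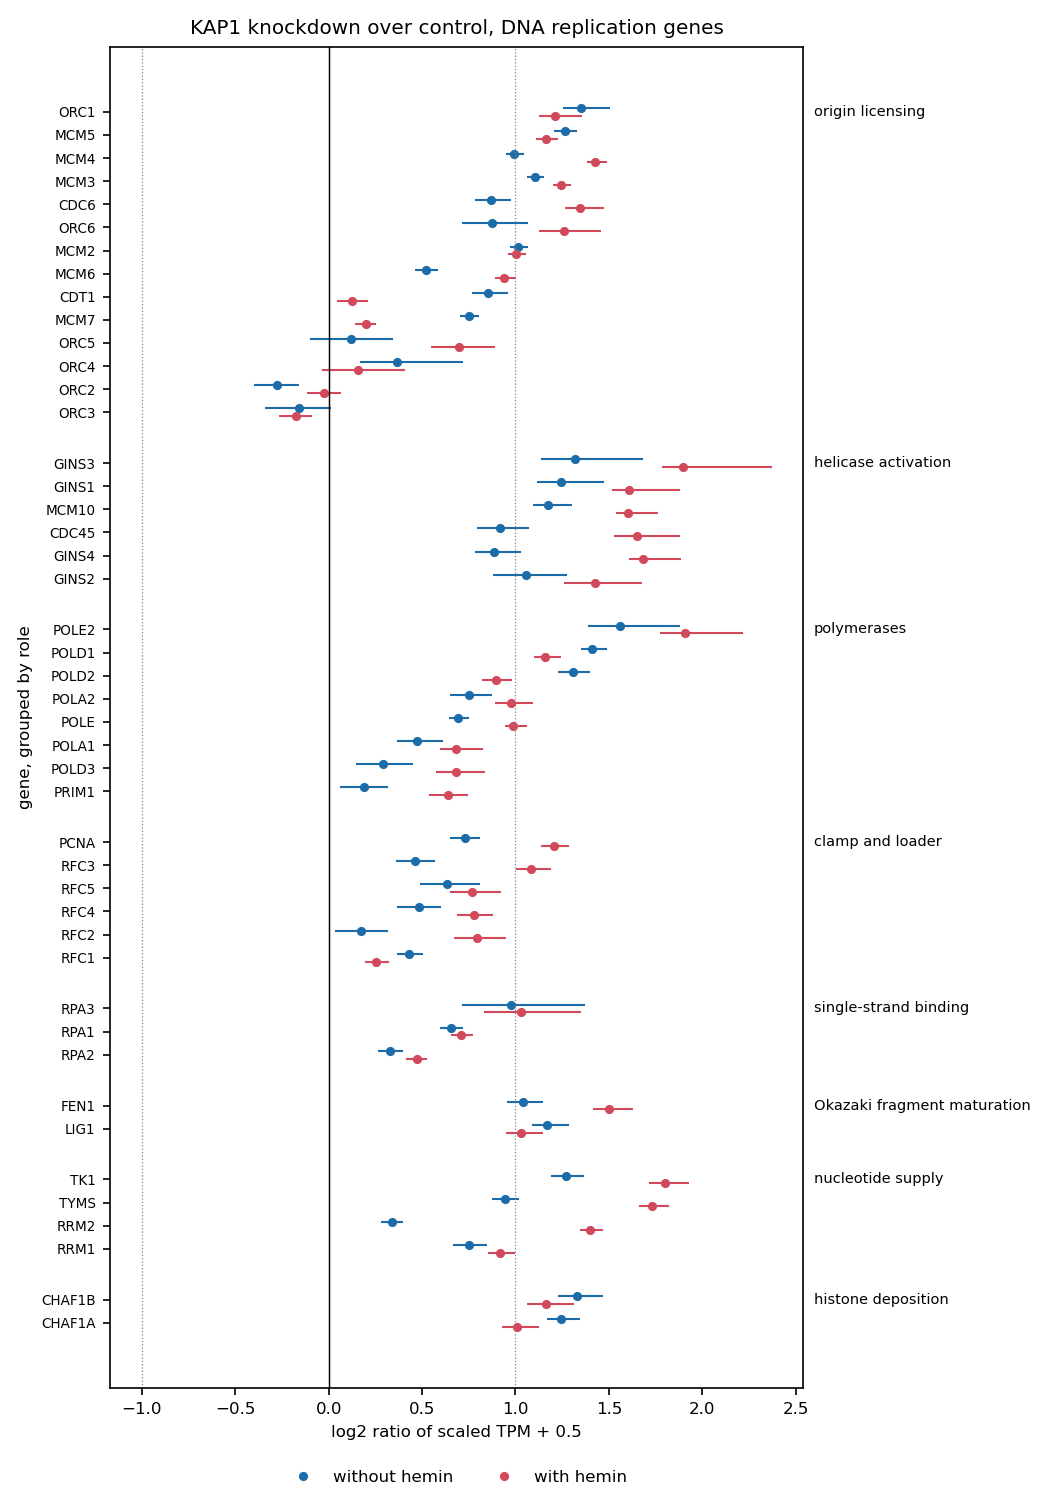
Log2 ratio of knockdown over control for the 45 DNA replication genes in the table, grouped by role, without hemin (blue) and with hemin (red). Points are ratios of 1 library to 1 library, bars are 95% counting intervals, and dotted lines mark 2-fold; ORC4 was below the floor. Only ORC2 and ORC3 lie left of 0 in both states.

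**Figure D2:**
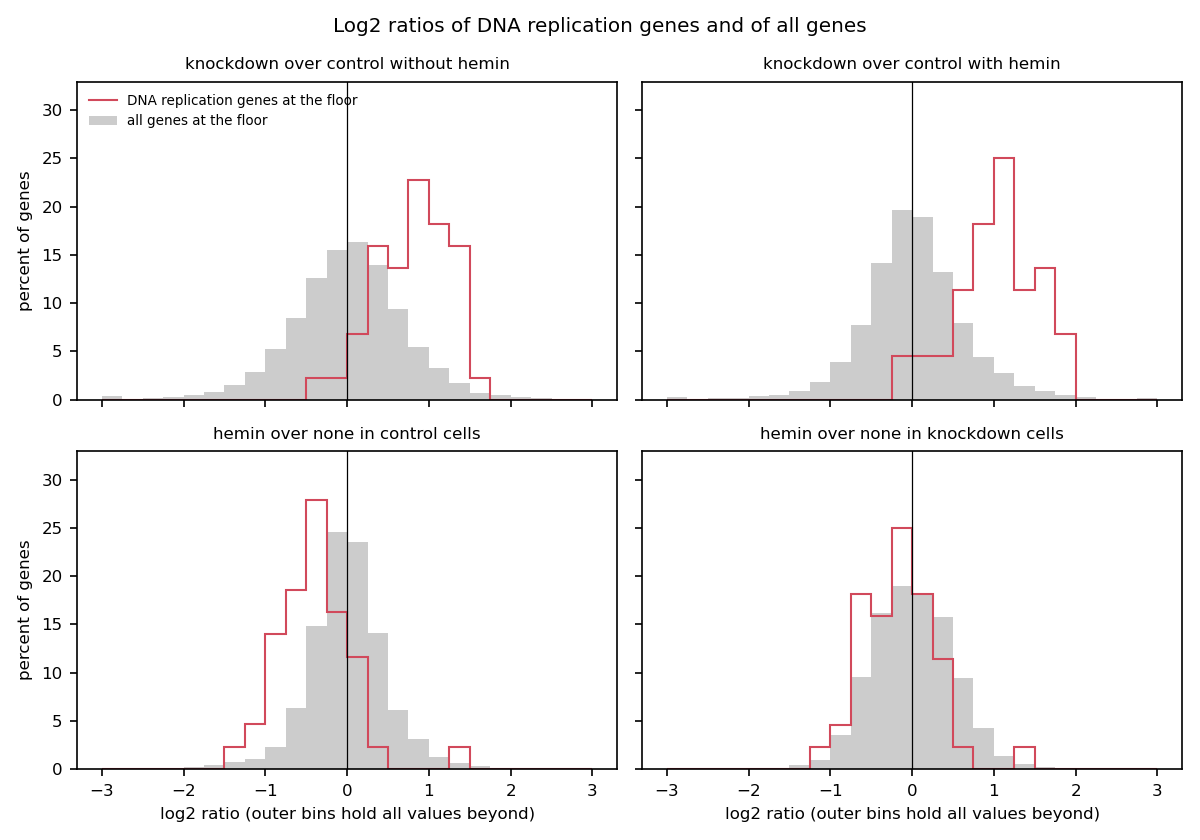
Share of genes (percent) by log2 ratio in bins of 0.25, for all genes at the floor (grey bars) and for DNA replication genes at the floor (red outline), in each of the 4 comparisons. The outline sits to the right of the bars in both knockdown comparisons, with medians of 0.87 and 1.03, and to the left for hemin in control cells, with a median of -0.41.

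Within origin licensing, all 6 MCM genes, CDC6, CDT1, ORC1, ORC5 and ORC6 had knockdown ratios above 0 in both states, and ORC2 and ORC3 were below 0. The ORC5 interval without hemin holds 0. The 13 genes at the floor had median knockdown log2 ratios of 0.87 without hemin and 1.00 with hemin, and 4 and 7 of them were at least 2-fold higher. MCM3, a ring subunit, was at 134 and 81.2 scaled TPM in control cells without and with hemin, and at 289 and 193 in knockdown cells. It was the most abundant MCM transcript in 3 of the libraries, and its ratios were 1.10 (1.06 to 1.15) without hemin and 1.24 (1.20 to 1.30) with hemin. MCM2 stood at 113 and 75.7 scaled TPM in control cells without and with hemin, and at 229 and 152 in knockdown cells, which gave 1.02 (0.97 to 1.07) without hemin and 1.003 (0.96 to 1.06) with hemin. MCM4 was measured at 110.1 and 61.1 scaled TPM in control cells without and with hemin, and at 219.8 and 165 in knockdown cells. Its ratio was larger with hemin, at 1.43 (1.38 to 1.49), than without, at 0.99 (0.95 to 1.05). MCM5 was at 86.1 and 65.9 scaled TPM in control cells without and with hemin, and at 207 and 148 in knockdown cells, a 2.40-fold higher level with knockdown without hemin and 2.24-fold with hemin. For these 4 ring subunits the 2 knockdown libraries lay above the 2 control libraries.

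MCM6 had the smallest knockdown ratio of the ring without hemin, and MCM7 with hemin. MCM6 was at 74.3 and 54.8 scaled TPM in control cells without and with hemin, and at 107 and 106 in knockdown cells, with ratios of 0.52 (0.46 to 0.58) without hemin and 0.94 (0.89 to 1.003) with hemin. MCM7 was at 119.9 and 85.9 scaled TPM in control cells without and with hemin, and at 202 and 98.7 in knockdown cells, so that the knockdown library with hemin lay below the control library without hemin. The MCM7 ratio was 0.75 (0.70 to 0.81) without hemin and 0.20 (0.14 to 0.26) with hemin. The most abundant ring subunit exceeded the least abundant by 1.57-fold in control cells with hemin, 1.81-fold in control cells, 1.96-fold in knockdown cells with hemin and 2.71-fold in knockdown cells. The ring holds its 6 subunits in equal number, and their transcripts were furthest apart in the knockdown library without hemin, where MCM3 was highest and MCM6 lowest.

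**Figure D3:**
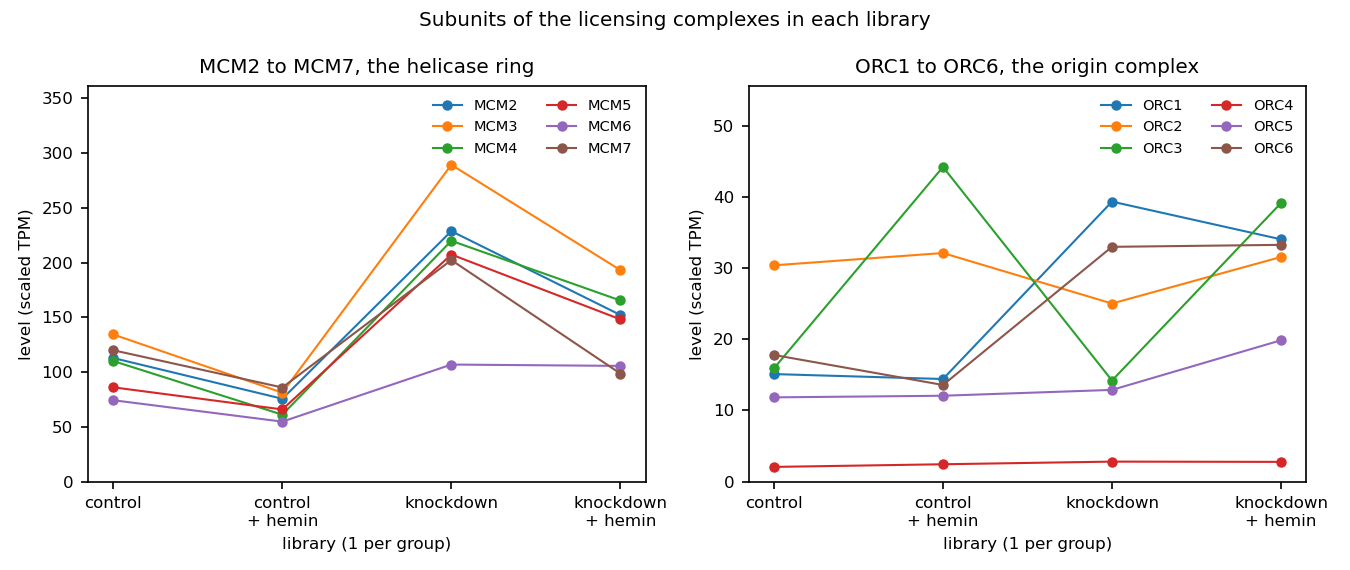
Scaled TPM of MCM2 to MCM7 (left) and ORC1 to ORC6 (right) in the 4 libraries, 1 library per group; lines join the libraries of a gene and carry no order. All 6 MCM transcripts were higher in knockdown than in control cells of the same hemin state, while ORC3 peaked in the 2 hemin libraries, at 44.2 and 39.1.

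Among the loaders, CDC6, the ATPase that joins ORC at the origin, was at 31.2 and 17.6 scaled TPM in control cells without and with hemin, and at 57.3 and 45.4 in knockdown cells. Its ratios were 0.87 (0.78 to 0.97) without hemin and 1.34 (1.26 to 1.47) with hemin, and both knockdown libraries lay above both control libraries. CDT1, the protein that brings the MCM ring to ORC, was at 35.1 and 43.1 scaled TPM in control cells without and with hemin, and at 63.7 and 47.1 in knockdown cells. The ratio was smaller with hemin, at 0.13 (0.047 to 0.21), than without, at 0.85 (0.77 to 0.96).

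The 6 ORC transcripts did not move together. ORC1, the subunit whose protein is known to cycle, was at 15.1 and 14.4 scaled TPM in control cells without and with hemin, and at 39.3 and 34.0 in knockdown cells. Its knockdown ratios, 1.35 (1.25 to 1.51) without hemin and 1.21 (1.12 to 1.35) with hemin, were the largest among the ORC genes without hemin. ORC6 stood at 17.8 and 13.6 scaled TPM in control cells without and with hemin, and at 33.0 and 33.2 in knockdown cells, with ratios of 0.87 (0.72 to 1.07) without hemin and 1.26 (1.13 to 1.46) with hemin. For both genes the 2 knockdown levels lay above the 2 control levels. ORC2 was at 30.4 and 32.1 scaled TPM in control cells without and with hemin, and at 25.01 and 31.5 in knockdown cells. It was lower with knockdown without hemin, at -0.28 (-0.40 to -0.16). Its ratio of -0.025 (-0.12 to 0.066) with hemin had an interval that holds 0. ORC3 was at 15.9 and 44.2 scaled TPM in control cells without and with hemin, and at 14.2 and 39.1 in knockdown cells. Its 2 hemin libraries were the high pair, and its knockdown ratios were -0.16 (-0.34 to 0.013) without hemin and -0.17 (-0.26 to -0.088) with hemin. ORC5 was at 11.8 and 12.1 scaled TPM in control cells without and with hemin, and at 12.9 and 19.9 in knockdown cells, and the knockdown library with hemin stood above the other 3. Its knockdown ratio without hemin, 0.12 (-0.10 to 0.35), had an interval that holds 0, and with hemin the ratio was 0.70 (0.55 to 0.89). The other ORC5 transcript in the table gave -0.00094 without hemin and 0.54 with hemin. ORC4 stayed at 2.07 and 2.45 scaled TPM in control cells without and with hemin, and at 2.82 and 2.78 in knockdown cells, below the floor in every library. Its 6 transcripts had knockdown log2 ratios from -0.34 to 1.56 without hemin, and no difference is read from it. Reads from a transcript of several isoforms cannot be divided with certainty, and this touches the 19 genes with more than 1 transcript in the table.

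Helicase activation had the highest median knockdown ratio of the 8 role groups with hemin. All 6 genes were higher with knockdown in both states, 4 at least 2-fold without hemin and 6 with hemin, and the median log2 ratios were 1.12 and 1.63. GINS3, a subunit of the GINS complex that bridges CDC45 and the MCM ring, was at 4.58 and 2.84 scaled TPM in control cells without and with hemin, and at 12.2 and 12.0 in knockdown cells. It reached the floor only through the knockdown libraries, so a difference was built into its passing, and its ratios of 1.32 (1.13 to 1.68) without hemin and 1.90 (1.79 to 2.37) with hemin are given with that limit. GINS2 was the lowest of the 6 by mean ratio, at 18.5 and 11.5 scaled TPM in control cells without and with hemin, and at 39.0 and 31.8 in knockdown cells. Its ratios were 1.06 (0.88 to 1.27) without hemin and 1.43 (1.26 to 1.68) with hemin. CDC45, the helicase cofactor, was at 23.5 and 9.39 scaled TPM in control cells without and with hemin, and at 44.9 and 30.6 in knockdown cells. The control library with hemin was the lowest of the 4, and the ratio was 0.92 (0.80 to 1.07) without hemin and 1.65 (1.53 to 1.88) with hemin. The log2 ratios without and with hemin were 1.17 and 1.60 for MCM10, a scaffold that helps to fire the helicase, 1.24 and 1.61 for GINS1 and 0.88 and 1.68 for GINS4.

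The polymerase genes were higher with knockdown in both states but over a wide range. The 8 genes in the table had medians of 0.72 without hemin and 0.94 with hemin, and 3 and 2 of them were at least 2-fold higher. POLE2, the second subunit of the leading-strand polymerase epsilon, was at 6.56 and 5.98 scaled TPM in control cells without and with hemin, and at 20.3 and 23.8 in knockdown cells. It had the largest ratio of all 44 genes in both states, 1.56 (1.39 to 1.88) without hemin and 1.91 (1.77 to 2.22) with hemin. POLE, its catalytic subunit, was at 42.6 and 22.3 scaled TPM in control cells without and with hemin, and at 69.1 and 44.6 in knockdown cells, with ratios of 0.69 (0.64 to 0.75) without hemin and 0.99 (0.94 to 1.06) with hemin. The ratio was larger for POLE2 than for POLE in both states.

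Polymerase delta makes most of the lagging strand. POLD1, its catalytic subunit, was at 48.3 and 32.6 scaled TPM in control cells without and with hemin, and at 129 and 73.4 in knockdown cells, or 2.66-fold higher with knockdown without hemin and 2.23-fold with hemin. POLD2, the subunit that holds the complex together, was at 69.6 and 62.9 scaled TPM in control cells without and with hemin, and at 173 and 117 in knockdown cells, with ratios of 1.31 (1.23 to 1.40) without hemin and 0.90 (0.82 to 0.98) with hemin. POLD3, which binds PCNA, was at 13.8 and 11.4 scaled TPM in control cells without and with hemin, and at 17.0 and 18.6 in knockdown cells. Its ratios of 0.29 (0.15 to 0.45) without hemin and 0.68 (0.57 to 0.84) with hemin were smaller than those of POLD1 and POLD2 in both states.

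Polymerase alpha and primase make the RNA-DNA primers. POLA1, the catalytic subunit, was at 12.5 and 9.57 scaled TPM in control cells without and with hemin, and at 17.5 and 15.7 in knockdown cells, with ratios of 0.47 (0.37 to 0.61) without hemin and 0.68 (0.60 to 0.83) with hemin. POLA2, its regulatory subunit, was at 29.3 and 24.3 scaled TPM in control cells without and with hemin, and at 49.8 and 48.2 in knockdown cells. Both knockdown libraries were above both control libraries for each, and the POLA2 ratios were 0.75 (0.65 to 0.87) without hemin and 0.98 (0.89 to 1.09) with hemin. PRIM1, the small primase subunit that makes the RNA primer, was at 46.02 and 43.2 scaled TPM in control cells without and with hemin, and at 52.5 and 67.4 in knockdown cells. Its ratio of 0.19 (0.060 to 0.32) without hemin was the lowest among the polymerase genes, and it was 0.64 (0.54 to 0.75) with hemin.

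Among the 8 role groups, nucleotide supply had median knockdown ratios that lay furthest apart between the hemin states. The median over its 4 genes was 0.85 in untreated and 1.56 in hemin-treated cells. TK1, the cytosolic thymidine kinase of the salvage path, was at 62.2 and 29.4 scaled TPM in control cells without and with hemin, and at 151 and 104 in knockdown cells. The ratios were 1.27 (1.19 to 1.37) without hemin and 1.80 (1.71 to 1.93) with hemin, with both knockdown libraries above both control libraries. TYMS, thymidylate synthase, was at 105 and 55.4 scaled TPM in control cells without and with hemin, and at 202 and 185 in knockdown cells. Its ratio was 0.94 (0.87 to 1.02) without hemin and 1.73 (1.66 to 1.82) with hemin. TYMS overlaps ENOSF1 on the opposite strand, and no source used here says whether counting used strand, so reads of the 2 genes cannot be told apart where they overlap. ENOSF1 was at 19.8 and 12.9 scaled TPM in control cells and at 30.2 and 34.7 in knockdown cells.

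RRM1 and RRM2 encode the large and small subunits of ribonucleotide reductase. RRM2, whose level is known to limit the enzyme, was at 94.3 and 46.2 scaled TPM in control cells without and with hemin, and at 119 and 123 in knockdown cells. The ratio was 0.34 (0.28 to 0.40) without hemin and 1.40 (1.35 to 1.47) with hemin, and the control library with hemin stood alone at the low end. RRM1 was at 34.7 and 39.8 scaled TPM in control cells without and with hemin, and at 58.7 and 75.5 in knockdown cells, with ratios of 0.75 (0.67 to 0.85) without hemin and 0.92 (0.85 to 0.996) with hemin. Without hemin the RRM1 ratio was the larger of the pair, and with hemin the RRM2 ratio.

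**Figure D4:**
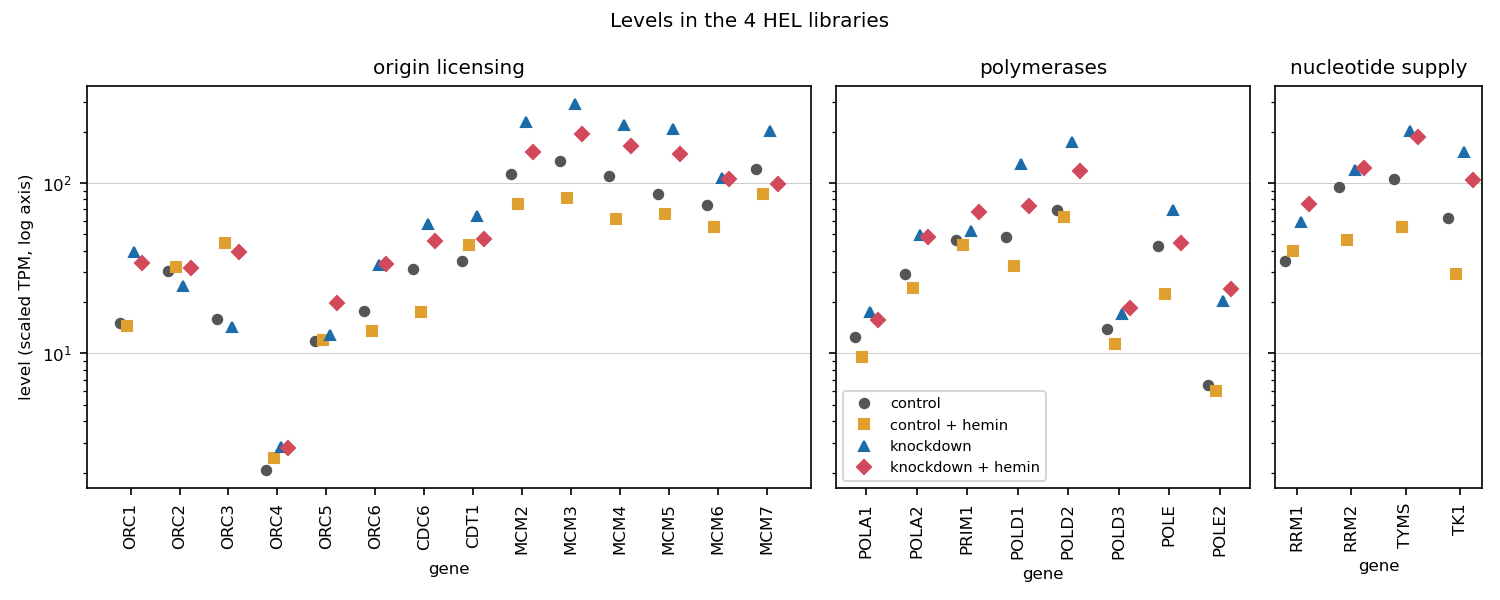
Scaled TPM (log axis) of the genes of origin licensing, of the polymerases and of nucleotide supply in the 4 libraries, 1 point per library. The control library with hemin is the lowest for TK1, TYMS and RRM2, at 29.4, 55.4 and 46.2, and the MCM genes are the most abundant licensing transcripts in all 4 libraries.

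The clamp and its loader had lower medians than the licensing, helicase, polymerase and nucleotide supply groups. None of the 6 was 2-fold higher without hemin and 2 were with hemin, with medians of 0.47 and 0.79. PCNA, the sliding clamp, was at 109.7 and 80.4 scaled TPM in control cells without and with hemin, and at 182 and 186 in knockdown cells. With ratios of 0.73 (0.65 to 0.81) without hemin and 1.21 (1.14 to 1.29) with hemin it had the highest mean of the group. RFC1, the large subunit of the clamp loader, had the lowest, at 41.2 and 40.1 scaled TPM in control cells without and with hemin, and at 55.8 and 48.0 in knockdown cells. Its ratios were 0.43 (0.37 to 0.51) without hemin and 0.26 (0.20 to 0.32) with hemin. For RFC2, RFC3, RFC4 and RFC5, the small loader subunits, the log2 ratios without and with hemin were 0.17 and 0.80, 0.46 and 1.08, 0.48 and 0.78 and 0.64 and 0.77 in that order. The RFC3 value without hemin depends on the transcript, since the other RFC3 transcript in the table gave 1.21.

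RPA, the trimer that coats single-stranded DNA, was at 53.6 and 42.5 scaled TPM in control cells without and with hemin, and at 84.6 and 69.7 in knockdown cells for RPA1. RPA2 was at 134 and 129 scaled TPM in control cells without and with hemin, and at 168 and 179 in knockdown cells, and RPA3, the smallest subunit, at 5.05 and 5.98 scaled TPM in control cells without and with hemin, and at 10.4 and 12.7 in knockdown cells. All 3 were higher in both knockdown libraries, with ratios without and with hemin of 0.65 and 0.71 for RPA1, 0.33 and 0.47 for RPA2 and 0.97 and 1.03 for RPA3. FEN1, the flap nuclease that trims Okazaki fragments, was at 40.3 and 22.4 scaled TPM in control cells without and with hemin, and at 83.5 and 64.4 in knockdown cells. LIG1, the ligase that joins them, was at 27.5 and 20.7 scaled TPM in control cells without and with hemin, and at 62.5 and 42.8 in knockdown cells. Both were at least 2-fold higher in both states, with FEN1 at 1.04 (0.95 to 1.15) without hemin and 1.502 (1.42 to 1.63) with hemin and LIG1 at 1.17 (1.09 to 1.28) without hemin and 1.03 (0.95 to 1.15) with hemin. CHAF1A, a subunit of the chromatin assembly factor CAF-1 that deposits histones behind the fork, was at 31.0 and 18.8 scaled TPM in control cells without and with hemin, and at 74.0 and 38.4 in knockdown cells. CHAF1B, its partner, was at 24.3 and 17.5 scaled TPM in control cells without and with hemin, and at 61.8 and 39.8 in knockdown cells. Both CAF-1 subunits were at least 2-fold higher in both states, and their ratios were smaller with hemin, at 1.01 and 1.17, than without, at 1.24 and 1.33.

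In total 15 genes were at least 2-fold higher with knockdown in both states, namely ORC1, MCM2, MCM3, MCM5, MCM10, GINS1, GINS2, GINS3, POLD1, POLE2, FEN1, LIG1, TK1, CHAF1A and CHAF1B. GINS3 is counted here although it passed the floor only through the knockdown libraries. By single state, 6.72% of all genes were as much higher without hemin and 6% with hemin. The share of all genes that were so in both states was not counted. The knockdown ratio was larger with hemin for 32 of the 44 genes at the floor and smaller for 12, where it was larger for 50.9% of all genes. With 1 library per group the difference between the states was not tested.

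Hemin was followed by lower levels of most replication genes in control cells and by a more mixed picture in knockdown cells. In control cells the median log2 ratio of hemin over none was -0.41 over 43 genes at the floor, against -0.0053 over all genes, and 36 of the 43 were below 0. Above 0 stood 49.4% of all genes there. CDC45, RRM2 and TK1 were at least 2-fold lower and ORC3 was 2-fold higher, where 2.59% of all genes were as much lower and 2.61% as much higher. In knockdown cells the median was -0.15 over 44 genes, with 29 below 0 and 15 above 0, where 50.1% of all genes were above 0. Among the 44, MCM7 alone was at least 2-fold lower and ORC3 alone 2-fold higher, against 1.71% and 2.3% of all genes. In the deposited values as they stand, 455 genes of the whole table were 2-fold higher and 194 lower with hemin in control cells, in place of 282 and 280, and 5048 and 12 in knockdown cells, in place of 249 and 186. The comparisons share libraries, since the control library without hemin is the base of both its hemin ratio and the knockdown ratio. The difference between the hemin ratios therefore equals the difference between the knockdown ratios and adds nothing to it.

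By role, nucleotide supply had the lowest median with hemin in control cells, -0.97, and -0.045 in knockdown cells. TK1 had hemin log2 ratios of -1.07 (-1.20 to -0.96) in control cells and -0.54 (-0.61 to -0.47) in knockdown cells. RRM2 was at -1.02 (-1.10 to -0.96) in control cells and 0.037 (-0.015 to 0.089) in knockdown cells and TYMS at -0.92 (-1.01 to -0.83) in control cells and -0.13 (-0.19 to -0.069) in knockdown cells, while RRM1 was above 0 in both, at 0.19 (0.11 to 0.28) and 0.36 (0.29 to 0.43). Origin licensing had medians of -0.38 and -0.33, so that it was lower in both backgrounds. MCM2, with -0.57 and -0.59, and MCM5, with -0.38 and -0.48, were lower by like amounts in control and knockdown cells, and MCM3 was at -0.72 and -0.58. MCM7 was lower by more in knockdown cells, at -1.03 (-1.09 to -0.98), than in control cells, at -0.48 (-0.54 to -0.42). MCM4, at -0.84 and -0.41, and MCM6, at -0.44 and -0.017, were lower by more in control cells. The polymerase genes had medians of -0.27 and -0.10. POLE was at -0.92 and -0.62 and POLD1 at -0.56 and -0.81 in control and knockdown cells, while POLE2, PRIM1 and POLD3 were above 0 in knockdown cells only, at 0.22, 0.36 and 0.12. Helicase activation had medians of -0.68 and -0.20, and the clamp and loader of -0.23 and 0.054. The CAF-1 subunits had hemin ratios of -0.71 and -0.94 for CHAF1A and -0.46 and -0.63 for CHAF1B in control and knockdown cells.

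**Figure D5:**
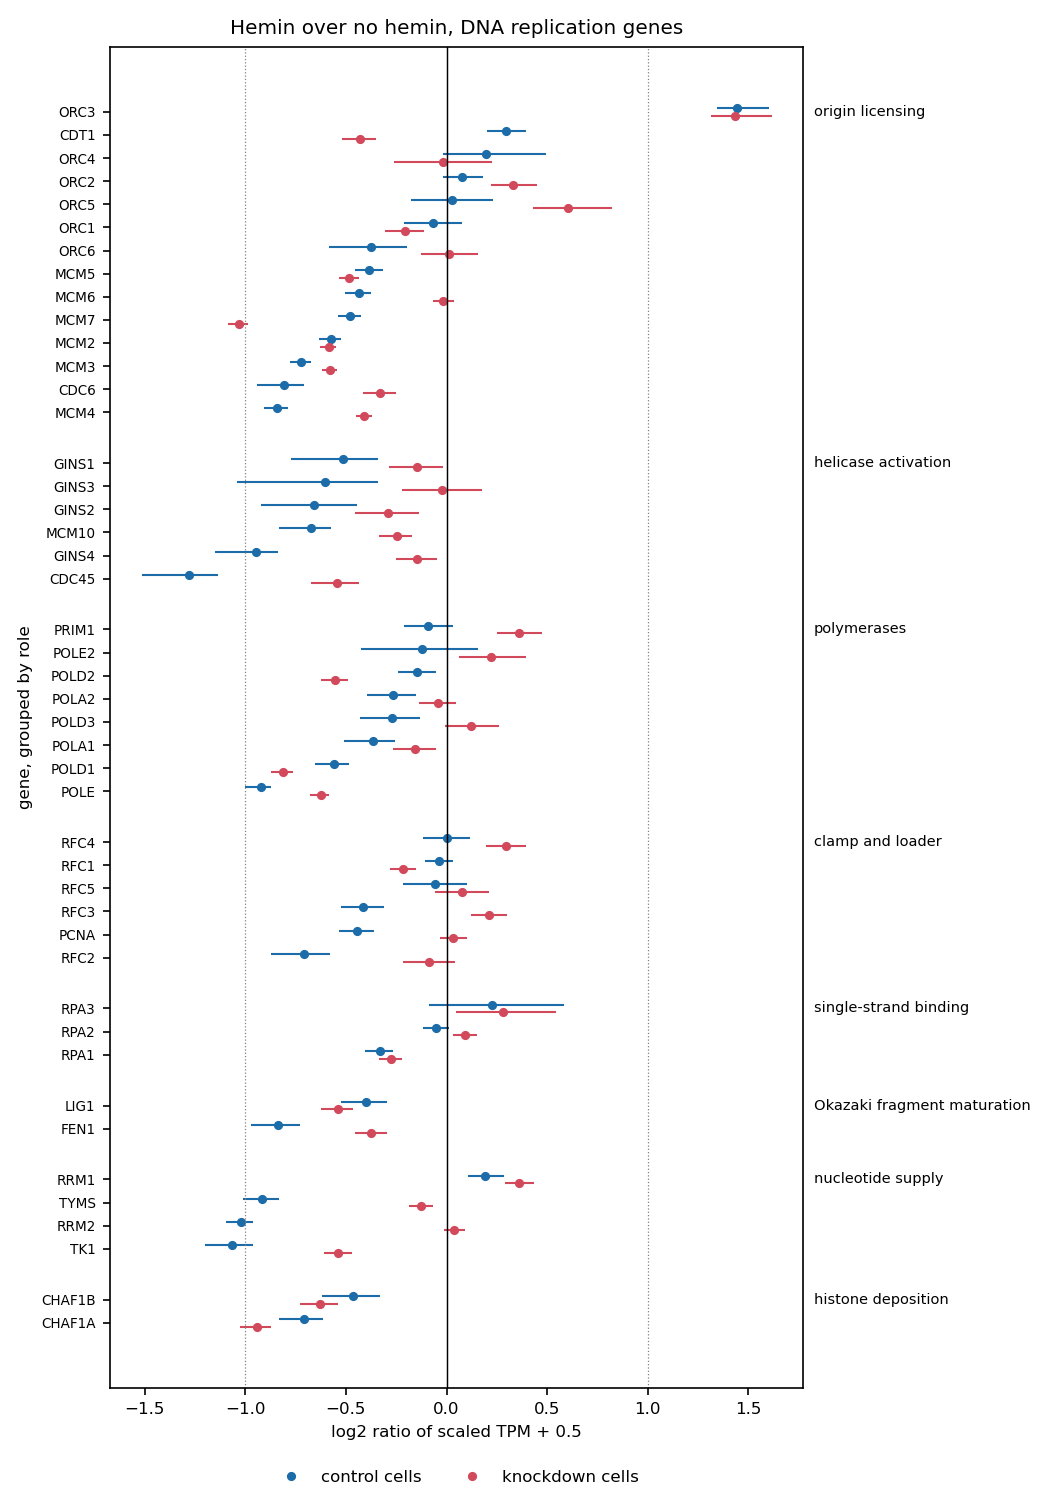
Log2 ratio of hemin over no hemin for the 45 DNA replication genes in the table, grouped by role, in control cells (blue) and knockdown cells (red). Points are ratios of 1 library to 1 library, bars are 95% counting intervals, and dotted lines mark 2-fold; ORC4 in both and GINS3 in control cells were below the floor. ORC3 lies past 2-fold to the right in both.

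ORC3 was the only replication gene at least 2-fold higher with hemin, in control and in knockdown cells alike, although 12 genes were in knockdown cells in the deposited values as they stand. Its reads numbered 658 and 2086 in control cells without and with hemin, and 432 and 2131 in knockdown cells. The log2 ratios were 1.44 (1.35 to 1.60) in control cells and 1.43 (1.31 to 1.61) in knockdown cells, and in control cells the 3 ORC3 transcripts in the table had hemin log2 ratios of 1.44, 1.47 and 1.49. ORC2 and ORC3 alone among the 44 genes had both hemin libraries above both untreated libraries, as 17.6% of all genes did, and MCM7 alone had both below, as 14.5% did. For ORC2 that difference was small, at 0.079 and 0.33.

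An additive model over the 4 libraries, with a knockdown and a hemin term, was fitted with limma to the 11183 genes at the floor. It has 1 residual degree of freedom, so that its errors come from the spread pooled over genes, with no weight on a gene's own residual, and it treats any difference between the hemin states as error. With knockdown, 33 of 44 replication genes rose and 0 fell at a Benjamini-Hochberg adjusted p of 0.05, where 12.2% of all genes rose and 10.2% fell. Over all genes 1361 rose and 1136 fell, and 1652 rose and 769 fell with libraries scaled to equal sums of reads per length. In the deposited values as they stand, 18 rose and 65 fell with knockdown and 16 rose and 1 fell with hemin, in place of 340 and 332. In the fit to scaled TPM, TK1 had the smallest knockdown p of the 44 replication genes (log2 1.54 ± 0.23 (SE), limma adjusted p = 2.61e-09), followed by POLE2 (1.73 ± 0.27 (SE), limma adjusted p = 1.55e-08) and TYMS (1.34 ± 0.23 (SE), limma adjusted p = 1.78e-07). In origin licensing 8 of 13 rose, in helicase activation 6 of 6 (GINS3, which passed the floor only through the knockdown libraries, among them), among the polymerases 5 of 8, in the clamp and loader 4 of 6, in RPA 2 of 3, and in Okazaki fragment maturation, nucleotide supply and histone deposition every member. The 11 that did not pass were CDT1, MCM7, ORC2, ORC3, ORC5, POLA1, POLD3, PRIM1, RFC1, RFC2 and RPA2. With hemin ORC3 rose (log2 1.44 ± 0.24 (SE), limma adjusted p = 6.83e-07), and CDC45, CHAF1A, MCM7, POLE and TK1 fell, by 0.91, 0.82, 0.76, 0.77 and 0.80, where 3.04% of all genes rose and 2.97% fell. The number of replication genes that fell with hemin was 1 without the trend, 1 with plain read totals and 0 in an ordinary linear model, in which 809 of all genes had an unadjusted p under 0.05. The ordinary linear model, which does not pool, called no gene of the 11183 for knockdown, where 1135 genes had an unadjusted p under 0.05, among them 8 replication genes that were higher and 1 that was lower. In the limma fit 37 of the 44 had such a p for knockdown, all of them higher. Over all 11183 genes 3711 had one in that fit, in either direction.

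Other genes of DNA replication, outside the list, were measured for 56 of 59 names, and 55 reached the floor. They had median knockdown log2 ratios of 0.52 without hemin and 0.81 with hemin, and 11 and 20 of them were at least 2-fold higher. None of the 55 was 2-fold lower, while 10 of the 55 were below 0 without hemin and 5 with hemin. Among the 20, ESCO2 and C11orf82 reached the floor only through the knockdown library. With hemin ESCO2 was at 4.52 scaled TPM in control and 14.6 in knockdown cells, and C11orf82 at 4.25 and 12.1. In the additive fit 33 of 55 rose with knockdown and none fell, while with hemin 1 rose and 3 fell. ASF1B, a histone chaperone that feeds CAF-1, had the highest mean, at 41.2 and 16.9 scaled TPM in control cells without and with hemin, and at 101 and 69.4 in knockdown cells. UHRF1, which recruits the maintenance DNA methyltransferase to replicated DNA, was next, with ratios of 1.45 and 1.61. ASF1A, the paralogue of ASF1B, was at 26.6 and 42.7 scaled TPM in control cells without and with hemin, and at 18.5 and 25.9 in knockdown cells, with ratios of -0.51 and -0.71. The 2 ASF1 genes thus lay on opposite sides of 0 in both states. TK2, the mitochondrial thymidine kinase, was below the floor at 3.43 and 4.78 scaled TPM in control cells without and with hemin, and at 2.31 and 1.94 in knockdown cells. Its knockdown ratios were -0.48 and -1.11, which is 2.16-fold lower with hemin, and the floor kept it out of the counts.

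Marker lists of cell state and cell type were measured beside the replication genes. Of 11 proliferation markers outside the list, 10 reached the floor, and their median knockdown log2 ratios were 1.07 without hemin and 1.45 with hemin, with 5 and 9 at least 2-fold higher. Their summed level was 420 and 306 scaled TPM in control cells without and with hemin, and 894 and 830 in knockdown cells. MKI67, a marker of cycling cells, was at 33.6 and 17.7 scaled TPM in control cells without and with hemin, and at 102 and 73.3 in knockdown cells. TOP2A, with knockdown ratios of 0.64 and 1.29, stands both among these markers and among the other genes of DNA replication above. Of the 10 markers, 1 had a knockdown ratio below 0 in each state. CDK1 was at -0.46 (-0.58 to -0.35) without hemin and 1.02 with hemin. CCNE1 was at 0.74 without hemin and -0.53 (-0.82 to -0.31) with hemin. Whether the share of cycling cells set the replication genes' values was not tested. All 14 erythroid markers were in the table. Their summed level, most of it from the globin genes HBG1, HBG2, HBA1 and HBA2, was 16428 and 61874 scaled TPM in control cells without and with hemin, and 19721 and 77279 in knockdown cells. By gene, their median knockdown log2 ratios were 0.061 without hemin and -0.16 with hemin, where 8 of 14 were below 0, and their median hemin ratios were 0.75 in control cells and 0.81 in knockdown cells. Without hemin 6 of 14 were below 0. Knockdown ratios without and with hemin were 1.32 and 1.18 for HBA1 and 1.30 and 1.19 for HBA2. They were -1.24 and -1.45 for EPOR, the erythropoietin receptor, and -1.05 and -0.42 for TFRC. HBZ, an embryonic globin, was at -0.30 (-0.98 to 0.31) without hemin, an interval that holds 0, on 34 knockdown and 58 control reads. With hemin HBZ was at -3.32 (-4.11 to -3.03), on 33 knockdown and 335 control reads. All 6 megakaryocyte markers were in the table, and their summed level was 2609 and 1285 scaled TPM in control cells without and with hemin, and 1890.3 and 1608 in knockdown cells. Their median knockdown log2 ratios were -0.22 without hemin and 1.41 with hemin, where 4 of 6 were at least 2-fold higher. ITGA2B and GP9 had knockdown ratios below 0 with hemin, at -0.027 and -0.20. With hemin 4 of 6 were at least 2-fold lower in control cells, at a median of -1.24, and none in knockdown cells, at a median of 0.053. PPBP is in both counts of 4. It was at 6.52 and 1.34 scaled TPM in control cells without and with hemin, and at 2.28 and 6.95 in knockdown cells. It passed the floor only through the higher library of each comparison, so a difference was built into its passing. Of the other lists, CD2 of the T cell markers was at 73.4 and 59.0 scaled TPM in control cells without and with hemin, and at 126 and 128 in knockdown cells, while CD8A stayed under 1 scaled TPM and CD3D, CD3E and CD3G had no row. KRT8 and KRT18 of the epithelial markers had knockdown log2 ratios of -0.15 and -0.74 and of -0.81 and -1.30, while EPCAM stayed under 1 scaled TPM and KRT19 and CDH1 had no row. Of the B cell markers CD79A had ratios of -1.63 and -1.23 and CD79B of 0.51 and -0.48, PAX5 stayed under 1 scaled TPM, and MS4A1 had no row, and of the fibroblast markers none of 5 had. The part of these cell type markers in the replication genes' values was not tested.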

How the data were processed

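RNA-seq libraries were made from 250 ng of total RNA of HEL cells, 1 per group. Per the file headers, the values the authors deposited are RPKM of single RefSeq transcripts. The submitters' processing notes list Bowtie and hg19. No source used here gives the counting method or its use of strand. The deposited RPKM were not scaled to depth, contrary to what the test design assumed. Whole reads were recovered for 24533 of 24538 rows (tolerance 0.0002 reads plus a relative 4e-09), with no replication gene among the other 5 rows. Reads with a common factor come out divided by it, as in 7.54% of random sets of 4 numbers, and intervals are then too wide, unless the transcript length corrected it. Each column was divided by a constant factor recovered with the reads, 1 to 1.10 across the libraries. Values were then divided by the reads total and a TMM factor and brought to a mean library sum of 1000000 (scaled TPM). A gene is its transcript with the highest mean, on log2 with a pseudocount of 0.5 and a floor of 5.

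Pairs of single libraries were compared by ratio and exact conditional binomial interval. The additive model used limma 3.58.1 in R 4.3.3, with Benjamini-Hochberg adjustment over all genes tested, and scripts used Python 3.11.15. Named genes follow a rule: every gene of licensing, polymerases and nucleotide supply, the extremes of each larger role group, all of each small group, and genes that left their group's direction. The members and lists were chosen with earlier results of these data known. Scalings, floors, pseudocounts, fold limits, transcript choices and a length trend were varied. The mouse ChIP-seq peaks were not used here.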

Additional observations from a re-analysis of the deposited data

Results flagged for a closer look

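For 2 replication genes the hemin ratios in control and knockdown cells lay on opposite sides of 0 with counting intervals that do not hold 0, and the difference itself was not tested, since each group is 1 library. CDT1, which brings the MCM ring to ORC, had log2 ratios of 0.29 in control cells and -0.43 in knockdown cells, a difference of -0.72 for knockdown minus control. RFC3, a clamp loader subunit, had -0.41 in control cells and 0.21 in knockdown cells, a difference of 0.62. The other RFC3 transcript gave -0.23 and -0.47, so that the opposite signs hold for the transcript used and not for that one.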

How the results depend on the processing

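No single-gene ratio of 2-fold or more changed sign. Of the recomputed counts and medians, 230 stayed within their limits and 38 moved. Of the single genes' ratios, 1817 moved by less than the mean distance from the ratio to the ends of its counting interval and 251 by more, 163 of them in the deposited values as they stand. No paired analysis was possible because the labels give no replicate numbers; the additive fit sets knockdown against control within each hemin state. Leaving out a library removes both comparisons that use it and leaves the additive fit no residual degree of freedom, so no such fit was run. In the deposited values as they stand, which still carry depth, 0 genes were 2-fold higher with knockdown without hemin, 1 was 2-fold lower with hemin in control cells and 0 in knockdown cells. The medians, for knockdown without and with hemin and for hemin in control and knockdown cells, were then 0.30, 1.25, -0.26 and 0.78 over all members, 0.29, 1.22, -0.23 and 0.61 for licensing, 0.15, 1.15, -0.12 and 0.84 for polymerases and 0.27, 1.78, -0.81 and 0.91 for nucleotide supply, so that hemin in knockdown cells changed sign, with 12 members at least 2-fold higher there in place of 1. The additive fit then called 0 genes for knockdown and 0 falling with hemin. With a floor of 20 the polymerase medians were 1.03 for knockdown without hemin and -0.30 for hemin in knockdown cells. A fold of 1.5 gave 31 and 38 genes higher with knockdown and 14 and 6 lower with hemin. With the length trend removed the polymerase median for knockdown without hemin was 0.82. Scaling to equal sums of reads per length, chosen after seeing the data, moved the median of all genes to 0.14 and 0.11 for knockdown without and with hemin, and the medians without hemin to 0.98 for all members, 0.98 for licensing, 0.83 for polymerases and 0.96 for nucleotide supply. Relative to those shifts the members stayed higher. The count falling with hemin in the additive fit, 5, was 3 under that scaling, 3 with the transcript of most reads, 1 without a trend, 1 with plain read totals and 0 in an ordinary linear model, which also called 0 for knockdown in place of 33. The cause was not tested. The median counting interval reached 0.10 to either side for the knockdown ratios, so depth limits them little, and the spread between cultures is unknown.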
